A study of Mus musculus with 9 samples.

Results

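The loss of DNMT3B was examined in J1 mouse ESCs, a line of strain 129S4/SvJae, by whole-genome bisulfite sequencing (WGBS), in which unmethylated cytosines are converted and methylated cytosines are read as unconverted. *Dnmt3b* KO ESCs (genotype *Dnmt3b*-/-, 3 libraries) were compared with wild type (WT) ESCs (3 libraries), which together make up 6 of the 9 libraries of the series. *Dnmt3a* KO ESCs (*Dnmt3a*-/-, 3 libraries) are given beside them for reference. All 3 genotypes were grown on gelatin with serum and LIF, and whether a genotype is 1 clone or several is not given in the sources used here. The 3 libraries of a genotype had been merged into 1 table of read counts per CpG, so that each value below is 1 pooled value per genotype without replicate error. Intervals cover counting error only, and because 1 read can cover several CpGs they are too narrow.

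DNMT3A and DNMT3B are the de novo DNA methyltransferases, which set methylation on unmethylated CpGs, while DNMT1 copies it onto the new strand after replication. Most CpGs of ESCs are methylated, with the exception of CpG islands at active or poised promoters. DNMT3B is known to bind along the bodies of transcribed genes, and mutations of human *DNMT3B* cause a syndrome in which repeats near centromeres lose methylation.

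The comparison covered CpGs with at least 5 reads in both genotypes on 13 whole chromosomes (1 to 3 and 10 to 19) and on chromosome 4 up to position 140865857 of mm9, where the WT table used here ends. This left 13042929 of 14240676 reference CpGs (91.6%), at a median depth of 22 reads in WT, 22 in *Dnmt3b* KO and 20 in *Dnmt3a* KO ESCs. The deletion was visible in the reads. In *Dnmt3b* (chromosome 2 from 153475186 to 153513466), a run of 30 CpGs from 153502553 to 153504282 was read 31.5 times on average in WT and 0 times in *Dnmt3b* KO ESCs, beside 26.4 times in *Dnmt3a* KO ESCs.

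Mean CpG methylation was 82.7% in WT and 75.8% in *Dnmt3b* KO ESCs, a difference of -6.95 percentage points. The difference was similar on every chromosome, from -7.15 points on chromosome 16 to -6.64 points on chromosome 13. This average hid a wide range between single promoters, gene bodies and islands. A feature was called lower or higher when its mean CpG methylation differed from WT by at least 20 points and the 95% Newcombe interval of the difference in read shares lay on the same side of 0.

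Proximal promoters, taken as 500 bp on both sides of the TSS of the longest isoform, could be measured for 11596 of 14279 protein-coding genes, with at least 10 CpGs each. In *Dnmt3b* KO ESCs 354 of them (3.05%) were called lower and 1 (0.00862%) was called higher. Against the same WT table, 2966 of 11528 promoters (25.7%) were called lower in *Dnmt3a* KO ESCs and 0 were called higher. In the 354 promoters, the median methylation was 70.1% in WT, 43.7% in *Dnmt3b* KO and 16.9% in *Dnmt3a* KO ESCs, and 148 of them still held 50% or more. Of the 333 promoters that also had enough reads on each strand, all 333 were lower than WT on both strands and 163 were lower by at least 20 points on both. Reads of the 2 strands come from different molecules, but the calls were made on their sum. Being lower than WT on both strands thus largely follows from the call, here and for the bodies and islands below. It is not a replicate. As a share of reads, 292 of the 354 promoters, 185 of the 219 gene bodies and 306 of the 325 islands described below differed by at least 20 points.

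**Figure D1:**
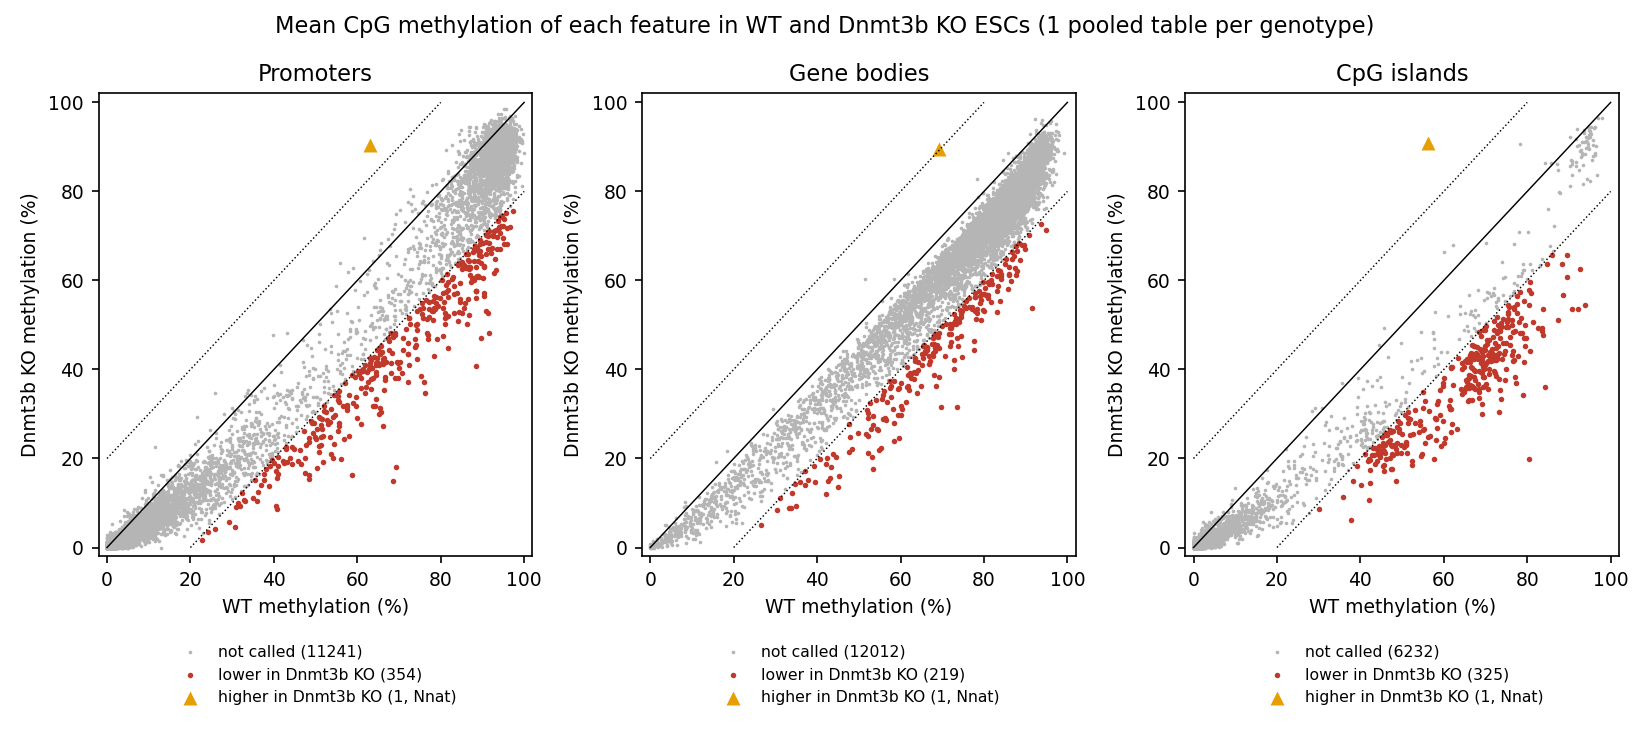
Mean methylation of each measured promoter (left), gene body (middle) and CpG island (right) in WT (x axis, %) and *Dnmt3b* KO ESCs (y axis, %), 1 point per feature. The solid line marks equal levels, the dotted lines a difference of 20 points, and red points the 354 promoters, 219 gene bodies and 325 islands called lower; the single triangle is *Nnat*.

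The promoter with the largest fall belonged to *Nudt12* (ENSMUSG00000024228.6), which encodes a hydrolase of NADH. Over its 32 CpGs (chromosome 17 from 59152295 to 59153295, minus strand), methylation was 68.5% in WT, 15.0% in *Dnmt3b* KO and 3.25% in *Dnmt3a* KO ESCs. The read share was 69.1% in WT (95% Wilson interval 64.9 to 73.0; 501 reads) and 14.8% in *Dnmt3b* KO ESCs (12.5 to 17.5; 755 reads), and the Newcombe interval of the difference ran from -58.8 to -49.2 points. The flanks also differed, by less. Methylation went from 86.1% in WT to 68.1% in *Dnmt3b* KO ESCs between 500 and 1500 bp downstream of the TSS, and from 95.9% to 85.5% between 1500 and 3000 bp. Upstream it went from 96.4% to 83.6% between 1500 and 500 bp before the TSS (4 CpGs), and from 89.9% to 72.9% between 3000 and 1500 bp (3 CpGs).

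The promoter of *Spag8*, which encodes a sperm-associated antigen, was at 69.3% in WT, 18.0% in *Dnmt3b* KO and 16.5% in *Dnmt3a* KO ESCs over 25 CpGs (chromosome 4 from 43665924 to 43666924, minus strand). Upstream, from 1500 to 500 bp before its TSS, the levels were 93.2%, 76.6% and 53.0% in the same order, and from 500 to 1500 bp after it 91.6%, 92.1% and 58.5%. *AF064781* followed, with 88.4% in WT, 40.7% in *Dnmt3b* KO and 9.69% in *Dnmt3a* KO ESCs over 15 CpGs (chromosome 4 from 57650195 to 57651195, plus strand), in a window that overlaps the neighbouring *Palm2*. To show how the lost CpGs lie, a stretch without annotated exons was picked from each of these 3 promoters. It was the one with the most CpGs lower by at least 20 points, so that their share within it follows from the choice. The stretches are printed from the mm9 reference in the direction of transcription, with each CpG lower by at least 20 points in capitals.

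*Nudt12*, chr17:59152385-59152624, minus strand, 171 to 410 bp after the TSS: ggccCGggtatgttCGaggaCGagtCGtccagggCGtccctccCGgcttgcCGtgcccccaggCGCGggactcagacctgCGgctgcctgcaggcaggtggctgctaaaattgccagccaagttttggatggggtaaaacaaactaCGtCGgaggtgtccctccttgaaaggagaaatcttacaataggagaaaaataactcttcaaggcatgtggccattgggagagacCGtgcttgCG

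*Spag8*, chr4:43666474-43666713, minus strand, 289 to 50 bp before the TSS: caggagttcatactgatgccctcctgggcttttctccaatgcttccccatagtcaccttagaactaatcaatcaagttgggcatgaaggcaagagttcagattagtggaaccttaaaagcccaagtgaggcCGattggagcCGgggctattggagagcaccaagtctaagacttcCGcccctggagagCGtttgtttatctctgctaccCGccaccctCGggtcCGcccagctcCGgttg

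*AF064781*, chr4:57650965-57651195, plus strand, 270 to 500 bp after the TSS: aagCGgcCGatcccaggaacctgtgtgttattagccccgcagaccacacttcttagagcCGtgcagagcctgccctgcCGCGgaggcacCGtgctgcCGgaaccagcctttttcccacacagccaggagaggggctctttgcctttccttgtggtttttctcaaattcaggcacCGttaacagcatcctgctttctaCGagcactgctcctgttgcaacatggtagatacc

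All 14 CpGs of the *Nudt12* stretch were lower, from a mean of 73.8% in WT to 10.7% in *Dnmt3b* KO ESCs, and the highest of them in *Dnmt3b* KO ESCs was at 27.9%. The 8 CpGs of the *Spag8* stretch went from a mean of 69.6% to 4.90%. In the *AF064781* stretch 9 of 10 CpGs were lower, and 1 was at 100% in WT and 92.9% in *Dnmt3b* KO ESCs. Reads per CpG in these stretches averaged between 13.1 and 24.3 in both genotypes.

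**Figure D2:**
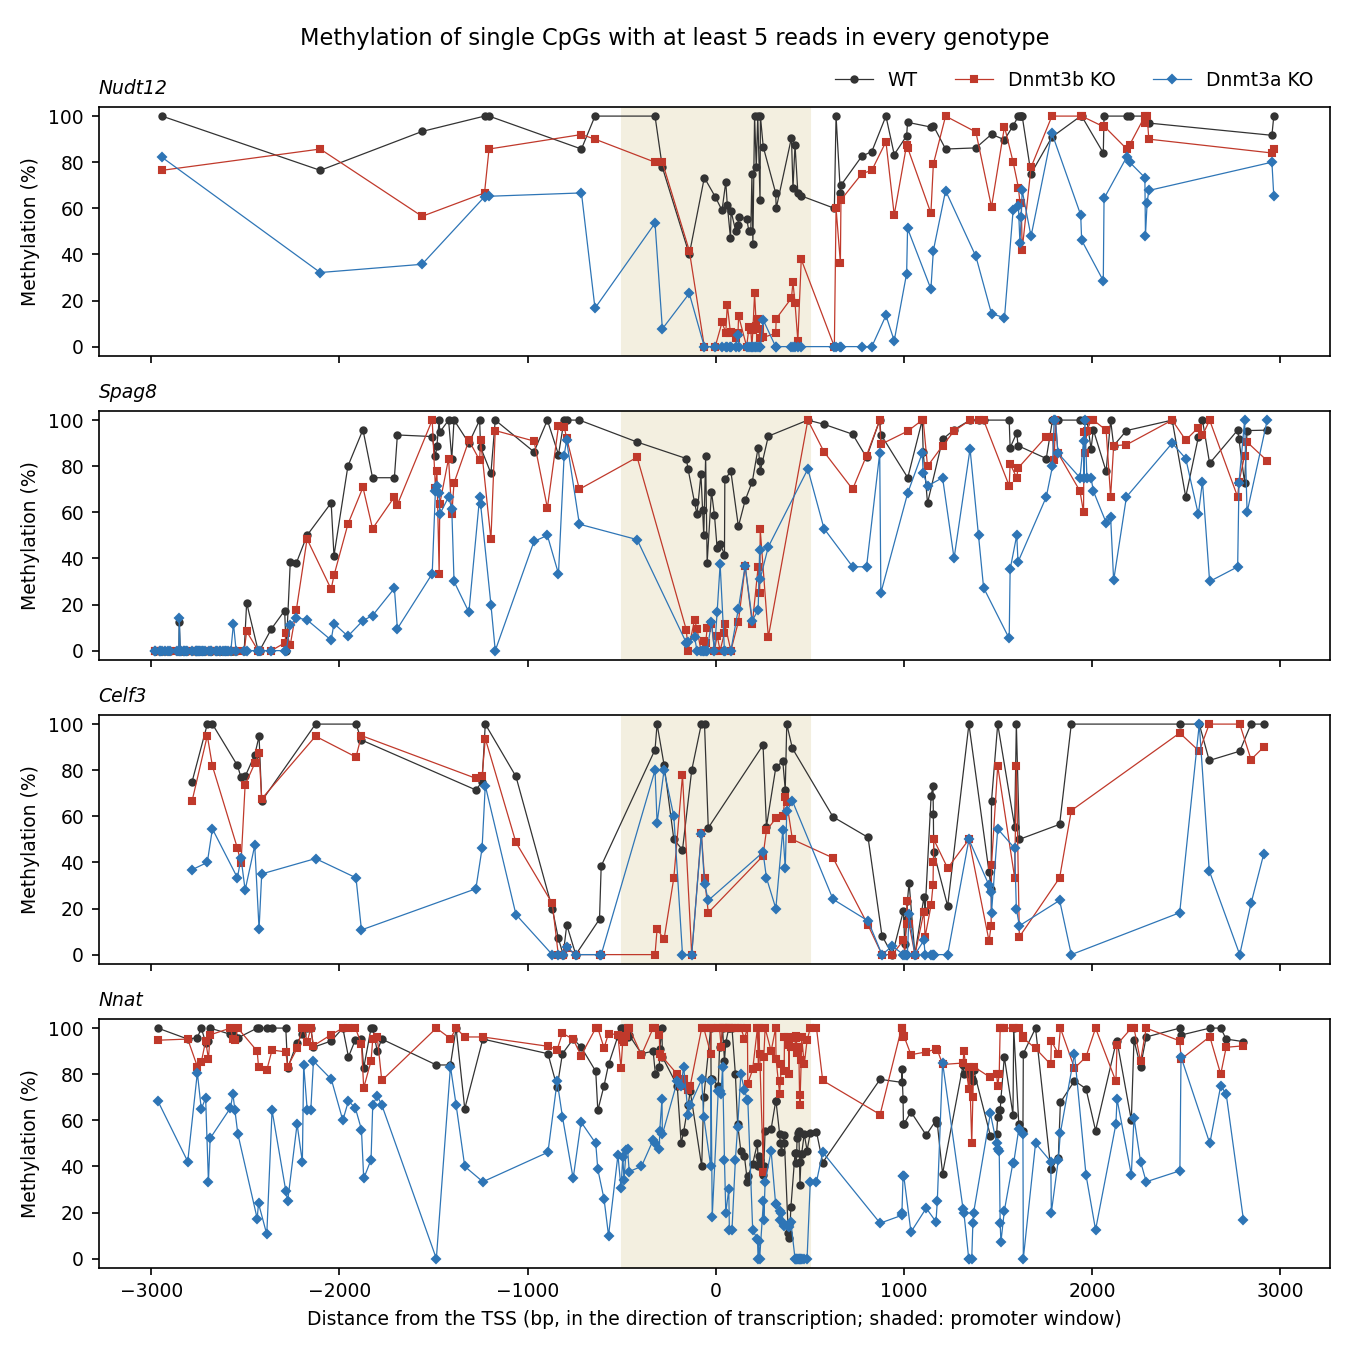
Methylation (y axis, %) of each CpG read 5 times or more in all 3 genotypes, by distance from the TSS (x axis, bp; shaded: the promoter window), at *Nudt12*, *Spag8*, *Celf3* and *Nnat*. Points are pooled values of WT (black), *Dnmt3b* KO (red) and *Dnmt3a* KO (blue); in the 500 bp after the TSS, *Dnmt3b* KO averaged 10.7% at *Nudt12* (WT 67.9%) and 90.4% at *Nnat* (WT 54.3%).

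The other 9 of the 12 promoters with the largest falls were those of *Ly6k*, *Hus1b*, *1700092M07Rik*, *Celf3*, *Slfn9*, *BC006779*, *Krt4*, *Pabpn1* and *Serpinb6c*, with differences of -43.3 to -36.9 points. *Ly6k*, whose protein is a membrane-anchored antigen of the Ly6 family, was at 91.6% in WT, 48.3% in *Dnmt3b* KO and 14.9% in *Dnmt3a* KO ESCs. *Krt4*, a keratin of stratified epithelia, was at 91.3%, 52.7% and 39.99%. *Celf3*, which encodes an RNA-binding protein of neurons, was at 76.2% in WT and 34.7% in *Dnmt3b* KO ESCs over 20 CpGs. Its *Dnmt3a* KO level was 43.9%, over those also read at least 5 times in *Dnmt3a* KO ESCs. On such CpGs, *Dnmt3b* KO was below *Dnmt3a* KO in the 500 bp before the TSS (25.9% against 42.6%, 9 CpGs). In the 500 bp after the TSS it was above (57.2% against 45.5%, 7 CpGs). A lower mean in *Dnmt3b* KO than in *Dnmt3a* KO ESCs was uncommon. Among 347 lower promoters with enough CpGs in *Dnmt3a* KO ESCs, 8 (2.31%) had less methylation in *Dnmt3b* KO than in *Dnmt3a* KO ESCs. The windows of *Hus1b*, *1700092M07Rik* and *Pabpn1* overlap *Exoc2*, *Wdr74* and *Gm20521*, so that their values cannot be given to 1 gene alone.

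**Figure D3:**
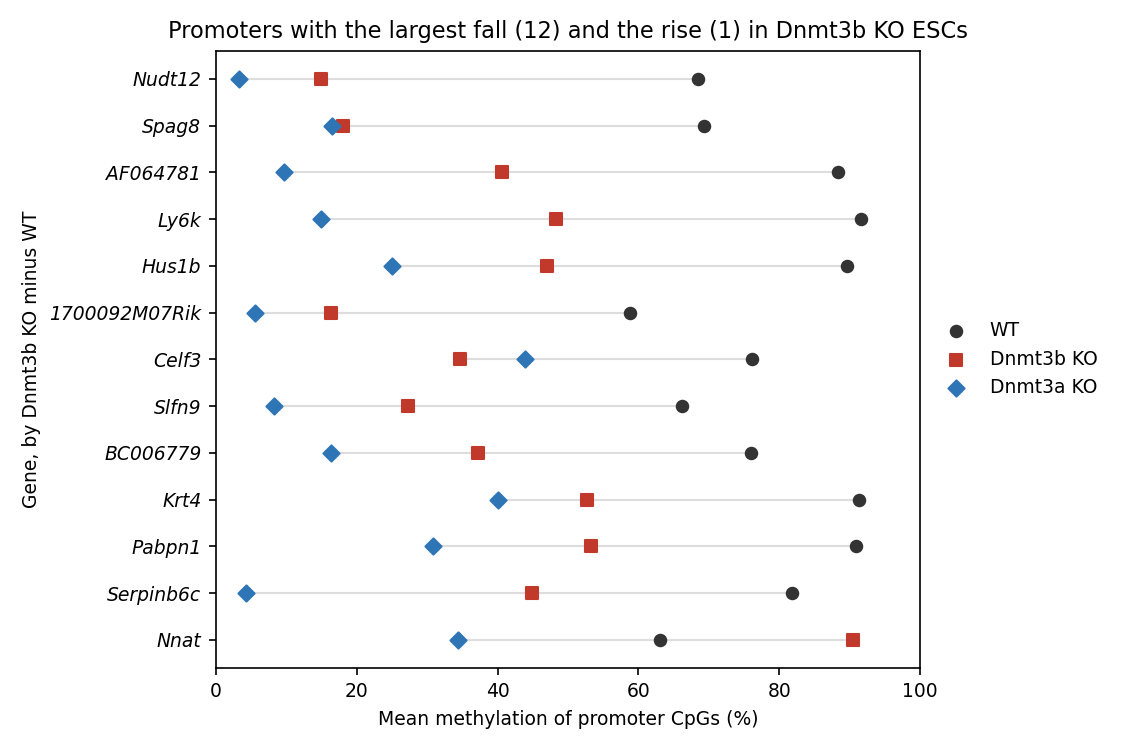
Mean methylation of promoter CpGs (x axis, %) in the 12 promoters with the largest fall and the 1 promoter called higher in *Dnmt3b* KO ESCs (rows), as 1 pooled value each for WT (black circles), *Dnmt3b* KO (red squares) and *Dnmt3a* KO (blue diamonds). *Dnmt3a* KO is lowest in every row except *Celf3*, and *Dnmt3b* KO is highest only in *Nnat*. In *Celf3* the *Dnmt3a* KO mean rests on fewer CpGs than the *Dnmt3b* KO mean, and *Dnmt3a* KO is the lower one after the TSS.

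Falls of 20 points were found most often in promoters of intermediate methylation. Of 486 promoters at 50% to under 80% in WT, 172 (35.4%) were called lower, against 127 of 2212 (5.74%) at 80% or more and 55 of 737 (7.46%) at 20% to under 50%. Promoters under 20% in WT cannot fall by 20 points, and they made up 8161 of the 11596. Among promoters at 50% or more, the called share rose with CpG density. It was 7.64% of 1899 promoters with under 2 CpGs per 100 bp, 16.3% of 603 with 2 to under 3, 27.6% of 145 with 3 to under 4 and 31.4% of 51 with 4 or more. The WT median fell over the same classes, from 91.6% to 70.3%, so that density and WT level cannot be told apart here.

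*Nnat* (ENSMUSG00000067786.9), an imprinted gene that lies in an intron of *Blcap* and is normally expressed from the paternal allele, was the only promoter, gene body and island called higher. Its promoter (chromosome 2 from 157385314 to 157386314, plus strand, 70 CpGs) was at 63.0% in WT, 90.5% in *Dnmt3b* KO and 34.3% in *Dnmt3a* KO ESCs. The read share was 60.8% in WT and 90.8% in *Dnmt3b* KO ESCs, with a Newcombe interval of 26.9 to 33.0 points for the difference of these shares. The gene body was at 69.2%, 89.6% and 34.1%, and the island at its TSS (chromosome 2 from 157385787 to 157386317, 51 CpGs) at 56.1%, 90.9% and 25.9%. For the promoter the rise was seen on both strands, from 57.5% to 85.4% on the plus strand and from 61.2% to 92.3% on the minus strand. For the gene body it was seen on the plus strand, with 64.4% in WT and 88.0% in *Dnmt3b* KO ESCs, whereas the 29 CpGs read on the minus strand were at 87.8% and 88.8%, at a mean of 7.48 reads in WT. The stretch with the most CpGs that rose by at least 20 points, from the end of the first coding exon into the intron, is printed with these CpGs in capitals.

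*Nnat*, chr2:157386184-157386423, plus strand, 370 to 609 bp after the TSS: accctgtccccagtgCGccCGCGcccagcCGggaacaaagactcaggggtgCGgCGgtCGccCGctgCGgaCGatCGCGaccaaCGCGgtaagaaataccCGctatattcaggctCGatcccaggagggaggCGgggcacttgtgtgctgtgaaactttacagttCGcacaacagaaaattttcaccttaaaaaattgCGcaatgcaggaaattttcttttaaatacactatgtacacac

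All 19 CpGs of this stretch rose, from a mean of 40.5% in WT, with none above 55.6%, to 89.2% in *Dnmt3b* KO ESCs, with none below 66.7%. In *Dnmt3a* KO ESCs their mean was 9.03%. Further upstream, from 3000 to 1500 bp before the TSS, WT and *Dnmt3b* KO ESCs were at 96.2% and 92.2%. No other gene of the imprinted list was called higher. Of 24 imprinted promoters measured, 0 were called lower, beside 3.05% of all promoters, and 1 was called higher, and the median difference was -2.75 points beside -1.47 over all promoters. The largest fall among imprinted promoters that was not called was that of *Gnas*, from 23.7% to 7.72%. Among 23 imprinted gene bodies, that of *Nnat* was the 1 called higher and 1 was called lower (4.35%, beside 1.79% of all bodies), that of *Zrsr1*, with 72.0% in WT and 50.2% in *Dnmt3b* KO ESCs.

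Gene bodies, from 500 bp after the TSS to the transcript end, were measured for 12232 of 13925 genes with at least 20 CpGs. They lost methylation almost everywhere, but seldom by much. *Dnmt3b* KO was below WT in 12192 of them (99.7%), with a median difference of -7.20 points, while 219 (1.79%) were called lower and 1 (0.00818%) was called higher. In *Dnmt3a* KO ESCs 11600 of 12215 (95%) were called lower against the same WT. Of the 219 bodies, 218 were below WT on both strands. Large falls were found in short genes, with calls in 73 of 956 bodies under 3 kb (7.64%), 114 of 2792 of 3 to under 10 kb (4.08%), 32 of 3759 of 10 to under 30 kb (0.851%), 0 of 3151 of 30 to under 100 kb and 0 of 1574 of 100 kb or more. A mean over a short body rests on fewer CpGs, and the part played by that was not tested.

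The largest fall was that of *4930404N11Rik*, from 73.4% in WT to 31.5% in *Dnmt3b* KO ESCs (chromosome 10 from 80826769 to 80828061, 76 CpGs; 13.5% in *Dnmt3a* KO). An island among those named below (chromosome 10 from 80826740 to 80827697) covers much of this body and also overlaps *F630110N24Rik*, so that both falls share CpGs. *Gm10397* went from 69.7% to 31.7% and *Cdc42ep2*, whose protein binds the GTPase CDC42, from 91.5% to 53.8%. *Nop56*, which encodes a core protein of the particles that methylate ribosomal RNA, went from 54.9% to 21.9% over 68 CpGs. *Daxx*, a chaperone of histone H3.3, went from 55.4% to 22.4% over 137 CpGs. *Txnip*, an inhibitor of thioredoxin, went from 53.1% to 20.3% over 60 CpGs, and *Abt1*, a regulator of basal transcription, from 77.6% to 44.3%. The other 3 of the 10 largest falls were those of *Sssca1*, *Zswim1* and *B3galt4*, with differences of -35.7 to -34.4 points. All 10 remained above their *Dnmt3a* KO levels, most narrowly *Sssca1*, with 17.6% in *Dnmt3b* KO and 16.2% in *Dnmt3a* KO ESCs. Of 10722 genes with both measured, 315 had a lower promoter, 209 a lower body and 5 both, which is 1.59% of the former and 2.39% of the latter. Over all 10722 genes, 1.95% had a lower body and 2.94% a lower promoter.

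Ribosomal protein genes, which every growing cell transcribes at a high rate, had larger differences in their bodies. Of 41 ribosomal protein gene bodies, 9 (22.0%) were called lower, beside 1.79% of all bodies, and 0 higher. The list's WT median was 30.02%, and the median difference was -14.1 points beside -7.20 points over all bodies. These 9 were *Rpl7*, *Rpl11*, *Rpl23*, *Rpl27*, *Rpl37*, *Rps7*, *Rps18*, *Rps24* and *Rps26*. *Rps26* went from 43.2% in WT to 18.1% in *Dnmt3b* KO ESCs (9.98% in *Dnmt3a* KO), and *Rpl37* from 33.3% to 8.98% (6.95%). Proteasome genes, which encode the protease that degrades ubiquitinated proteins, had 3 of 25 bodies called lower (12%) with a median of -9.56 points, beside 1.79% of all bodies: *Psmb4* went from 61.7% to 36.3%, *Psmb6* from 79.4% to 55.7% and *Psmb5* from 74.6% to 52.4%. As a share of reads, *Psmb5* differed by less than 20 points, with 74.4% and 61.1%. Ribosomal protein bodies are short, with a median length of 2.75 kb. Their count stands beside the 7.64% of bodies under 3 kb and the 4.08% of those of 3 to under 10 kb. Proteasome bodies had a median length of 12.9 kb and reached 88.2 kb, and 0.851% of all bodies of 10 to under 30 kb were called. The 3 proteasome bodies called are short ones. The part played by length was not tested. Promoters of both lists were nearly unmethylated, with WT medians of 1.31% and 1.45%, and 1 of 43 and 0 of 25 were called lower. The 1 was *Rps10*, at 44.9% in WT and 22.2% in *Dnmt3b* KO ESCs.

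Along genes, the difference was followed in bins scaled to gene length. Over 12265 genes of at least 2 kb, the difference was -4.54 points in the first 5% of the gene, where WT was at 34.3%, and then flat, with -7.05 points at 10 to 30%, -6.90 at 30 to 70% and -7.06 at 70 to 100% of the length. It was -8.04 points from 5 to 3 kb before the TSS and -7.58 points from 3 to 5 kb after the end. Over 61 ribosomal protein and proteasome genes as 1 group, the difference went from -5.98 points at 10 to 30% to -9.85 points at 30 to 70% and -14.1 points at 70 to 100%. It was -16.6 points in the first and -16.9 points in the second 500 bp past the end of the ribosomal protein and proteasome genes, and -10.1 points from 3 to 5 kb after it. Within these genes WT rose over the same parts, at 43.2%, 71.4% and 88.3%, against 84.5%, 87.5% and 88.1% over all genes. Within the gene, larger differences thus went along with a higher WT level. In the 2 bins just past the end, with -16.6 and -16.9 points, WT was lower again, at 77.5% and 69.8%. What sets these differences was not tested. In the last part of the gene, the 61 genes and all genes had close WT levels, 88.3% and 88.1%, while *Dnmt3b* KO ESCs were at 74.2% and 81.0% and *Dnmt3a* KO ESCs at 48.1% and 54.0%.

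**Figure D4:**
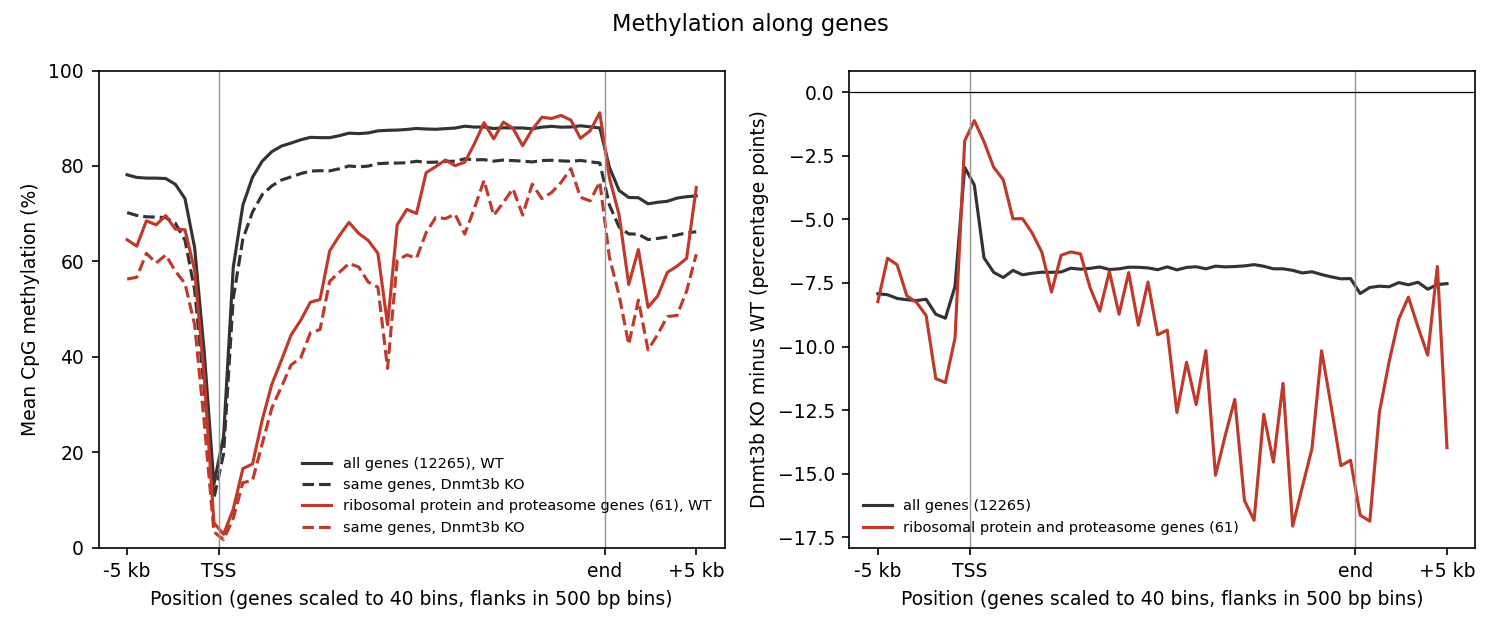
Mean CpG methylation (left, %) and *Dnmt3b* KO minus WT (right, percentage points) from 5 kb before the TSS to 5 kb after the transcript end, with genes scaled to 40 bins, for all 12265 genes (black) and 61 ribosomal protein and proteasome genes (red); solid lines on the left are WT and dashed lines *Dnmt3b* KO. The black difference is flat along the gene body after the first 5%. The red one falls toward the gene end, where the red WT level rises as well. Just past the end the red difference is as low, while the red WT level is lower again.

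CpG islands were measured for 6558 of 6712 islands of at least 500 bp, with at least 20 CpGs each. Among them 325 (4.96%) were called lower in *Dnmt3b* KO ESCs and 1 (0.0152%), that of *Nnat*, was called higher. In *Dnmt3a* KO ESCs 407 of 6514 (6.25%) were called lower against the same WT. Of the 325 islands lower in *Dnmt3b* KO ESCs, 175 also had enough reads on each strand. Among these, 170 were lower than WT on both strands and 113 by at least 20 points on both. By place, 5 of 4863 islands within 500 bp of a TSS (0.103%) were called lower, with 108 of 898 elsewhere in genes (12.03%) and 212 of 797 between genes (26.6%). Islands at promoters were nearly all unmethylated in WT, with a median of 0.637%. Of the 318 islands at 50% to under 80% in WT, 236 (74.2%) were called lower, with medians of 68.5% in WT, 42.5% in *Dnmt3b* KO and 39.9% in *Dnmt3a* KO ESCs.

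The largest fall of all features was in an island inside *Srsf4*, which encodes a splicing factor with an arginine- and serine-rich domain. The island (chromosome 4 from 131456196 to 131456748, 43 CpGs) was at 80.5% in WT, 19.98% in *Dnmt3b* KO and 5.91% in *Dnmt3a* KO ESCs. Its read share was 81.1% in WT (Wilson interval 78.5 to 83.4; 961 reads) and 18.7% in *Dnmt3b* KO ESCs (16.5 to 21.1; 1107 reads). An island in *F2r*, the thrombin receptor gene, followed (chromosome 13 from 96374015 to 96374721, 51 CpGs), with 84.3%, 36.1% and 10.2%. The stretches of these islands with the most lost CpGs, all coding sequence, are printed in the direction of transcription, with CpGs lower by at least 20 points in capitals.

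*Srsf4*, chr4:131456516-131456748, plus strand: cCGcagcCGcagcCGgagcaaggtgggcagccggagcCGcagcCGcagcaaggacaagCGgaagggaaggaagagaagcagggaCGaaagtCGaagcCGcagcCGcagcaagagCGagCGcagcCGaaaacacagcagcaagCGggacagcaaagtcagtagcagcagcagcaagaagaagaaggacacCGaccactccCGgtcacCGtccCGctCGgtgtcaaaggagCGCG

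*F2r*, chr13:96374015-96374254, minus strand: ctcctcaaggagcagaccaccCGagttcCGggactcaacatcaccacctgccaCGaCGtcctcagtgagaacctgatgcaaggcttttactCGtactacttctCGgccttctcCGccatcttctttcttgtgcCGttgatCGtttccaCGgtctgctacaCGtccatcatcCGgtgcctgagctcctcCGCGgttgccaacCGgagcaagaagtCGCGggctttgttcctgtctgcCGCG

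In the *Srsf4* stretch 21 of 22 CpGs were lower, with means of 83.3% in WT and 23.7% in *Dnmt3b* KO ESCs, and in the *F2r* stretch 19 of 19, with 82.9% and 33.7%. Further islands among the 10 largest falls lay in *4930404N11Rik*, *Pard6b*, *Socs5*, *Pias4* and *2510012J08Rik*. That of *Pard6b*, a cell polarity gene, was at 73.6% in WT, 33.3% in *Dnmt3b* KO and 7.70% in *Dnmt3a* KO ESCs. The island in *Socs5*, a suppressor of cytokine signalling, was at 93.8%, 54.4% and 18.3%. The remaining 3 lay between genes, with *Sdpr*, *Cdh20* and *Ptger4* as the nearest genes (31661, 1650536 and 124894 bp to the TSS), and their knockouts stood in another order. They were at 79.0%, 77.3% and 77.1% in WT and 34.3%, 37.0% and 38.2% in *Dnmt3b* KO ESCs, below their *Dnmt3a* KO levels of 35.7%, 40.3% and 50.5%. As a share of reads, the island near *Cdh20* was at 41.8% in *Dnmt3b* KO ESCs. None of the 3 had a value on the minus strand, and that near *Ptger4* averaged 8.07 reads per CpG in *Dnmt3b* KO ESCs.

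These 3 islands are copies of repeated sequence. The number of times that each 24-base word of an island occurs on the chromosomes compared was counted on both strands, and an island was called repeated when its median word had 10 or more copies. By this count, 522 of the 6558 islands were repeated, with a median of 592 copies, and 279 of them (53.4%) were called lower in *Dnmt3b* KO ESCs. Of the other 6036 islands, 46 (0.762%) were. Their WT median was 0.759%, against 66.0% for the repeated islands, so that most of them had too little methylation to be called lower. Among islands at 50% or more in WT, 225 of 339 repeated islands (66.4%) and 35 of 76 others (46.1%) were called lower. The repeated islands held most of the 325 calls, and 209 of the 212 between genes. Among islands under 10 copies, 38 of 757 in genes (5.02%) and 3 of 430 between genes (0.698%) were called lower. Of those at 50% or more in WT, 32 of 58 in genes (55.2%) and 0 of 6 between genes were. The repeated islands at 50% or more in WT had 57 of 92 in genes (62.0%) and 168 of 247 between genes (68.0%). All 12 promoters with the largest falls had a median of 1 copy, and leaving out repeated promoters left 352 of the 354.

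Among islands at 50% or more in WT, the level in *Dnmt3b* KO ESCs was close to that in *Dnmt3a* KO ESCs where the island was repeated, and above it where it was not. The 339 repeated islands had medians of 71.3% in WT, 45.4% in *Dnmt3b* KO and 45.1% in *Dnmt3a* KO ESCs, and 151 of them were lower in *Dnmt3b* KO than in *Dnmt3a* KO ESCs. The 76 other islands had medians of 71.8%, 48.5% and 27.4%, and 3 of them were lower in *Dnmt3b* KO ESCs. By shared words (at least 25% of those of the shorter island), the 522 repeated islands fell into 11 families and 11 single islands. The largest family had 178 members with a median of 2385 copies, and medians of 70.7% in WT, 43.4% in *Dnmt3b* KO and 42.5% in *Dnmt3a* KO ESCs. The second, with 140 members and 568 copies, was at 55.2%, 28.3% and 34.2%, and 96 of its members were lower in *Dnmt3b* KO than in *Dnmt3a* KO ESCs. The third, with 51 members, was at 44.8%, 25.9% and 29.9%, and 39 of its members were lower in *Dnmt3b* KO than in *Dnmt3a* KO ESCs. Other families differed from these. In the fourth and the fifth, with 36 members each, medians were 22.2% and 32.6% in *Dnmt3b* KO against 15.0% and 23.9% in *Dnmt3a* KO ESCs, and 1 member of each was lower in *Dnmt3b* KO ESCs. A repeat annotation was not used here, so that the families are not named.

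Reads of a repeated sequence can be placed on any of its copies, and the alignment used the default parameters of BSMAP, whose treatment of such reads is not described further in the sources used here. Levels of single repeated islands may thus be averages over copies, which was not tested. Strands were also read unevenly there, with a median of 15.2 reads per CpG on the plus and 7.60 on the minus strand in WT, against 11 and 12.1 in the 76 other islands. The direction was the same on both, with median differences of -21.4 points on the plus strand (519 repeated islands with at least 10 CpGs) and -15.2 points on the minus strand (316).

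**Figure D5:**
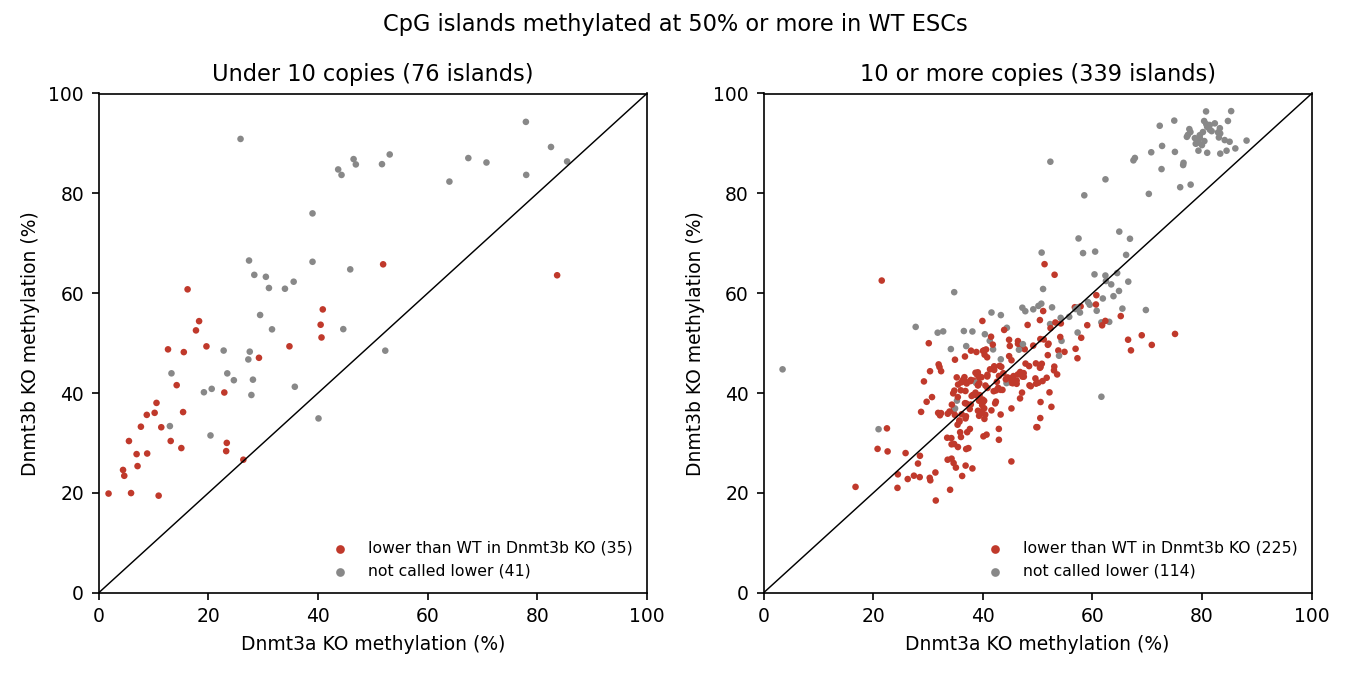
Methylation of islands that held 50% or more in WT, with the *Dnmt3a* KO level on the x axis (%) and the *Dnmt3b* KO level on the y axis (%), for 76 islands under 10 copies on the chromosomes compared (left) and 339 with 10 or more (right); red points were called lower in *Dnmt3b* KO ESCs, and the line marks equal levels. On the left 3 islands lie below the line, on the right 151.

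The bases around a CpG went along with how much methylation was lost. Among CpGs at 80% or more in WT with at least 5 reads in all 3 genotypes, each read in both directions, the difference between *Dnmt3b* KO and WT was -11.3 points for CpGs followed by A, -8.71 by T, -8.62 by G and -5.99 by C. With the base before the CpG added, CpGs in TCGA lost most, from 94.0% in WT to 78.0% in *Dnmt3b* KO ESCs (-16.0 points), and those in GCGC least, from 95.9% to 91.3% (-4.66 points). ACGA with its reverse complement TCGT lost 11.1 points and CCGA with TCGG lost 10.3 points. On all 14 chromosomes TCGA had the lowest and GCGC the highest difference of all contexts, with ranges of -16.7 to -15.1 and -5.05 to -4.41 points. Both are named as the extremes of the order, after their values were seen. In *Dnmt3a* KO ESCs the order was another, with the lowest level at ACGT (50.4%) and the highest at CCGG (64.9%), against 61.1% at TCGA and 58.5% at GCGC.

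With 2 bases on each side, ATCGAC and its reverse complement GTCGAT lost most, from 94.0% to 74.2% (-19.9 points; 62.5% in *Dnmt3a* KO), and TGCGCA least, from 96.3% to 93.0% (-3.31 points; 67.9%). AACGTT was low in both knockouts, with 75.4% in *Dnmt3b* KO and 43.6% in *Dnmt3a* KO ESCs. The gap between TCGA and GCGC did not depend on strand, being -11.1 points with plus strand reads and -11.1 points with minus strand reads. It was present at every local CpG density, with -19.4 against -4.98 points for CpGs alone in 200 bp and -11.4 against -8.08 points for those with 16 or more CpGs in 200 bp. In that densest class they were not the extremes: CCGA with TCGG differed most from WT (-20.8 points) and ACGA with TCGT least (-7.93 points).

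Within CpG islands these contexts differed as well. In repeated islands TCGA was at 72.4% in WT, 42.1% in *Dnmt3b* KO and 45.4% in *Dnmt3a* KO ESCs over 1910 CpGs, whereas GCGC was at 54.9%, 43.9% and 33.4% over 2867 CpGs. CCGG differed from WT there by -26.6 points, close to the -30.3 points of TCGA. In islands under 10 copies at 50% or more in WT, TCGA differed by -28.2 points and GCGC by -14.1 points. Repeated islands that were called lower had 15.7% of their CpGs in TCGA, and those that were not called had 7.38%, among islands at 50% or more in WT. The shares of TCGA were 3.37% and 3.47% in the other islands, and 4.29% and 4.76% in promoters.

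By local CpG density, for CpGs at 80% or more in WT, the difference was -10.4 points for CpGs alone in 200 bp, -8.75 points with 2 to 3 CpGs, -7.85 with 4 to 7, -9.31 with 8 to 15 and -12.3 with 16 or more. These CpGs were chosen on the same WT values that enter the difference. In the densest class 18960 of 465370 CpGs were at 80% or more in WT. The part played by this choice was not tested. In *Dnmt3a* KO ESCs the level rose over the same classes, from 56.5% to 63.7%. Over CpGs of any WT level, the order was another, with -6.71 points at 4 to 7 CpGs and -1.60 points at 16 or more, where WT was at 6.92%.

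Of the germline genes, some of which are silenced by promoter methylation in somatic cells, 6 of 37 promoters (16.2%) were called lower, with a median difference of -11.3 points beside 3.05% and -1.47 over all promoters. The list's WT median was 69.1%, and 35.4% of all promoters at 50% to under 80% in WT were called. The share was 5.74% at 80% or more and 7.46% at 20% to under 50%. *Sohlh2*, a transcription factor of germ cells, went from 89.7% in WT to 63.8% in *Dnmt3b* KO ESCs (15.0% in *Dnmt3a* KO). *Sycp1* and *Sycp2*, which encode proteins of the synaptonemal complex, went from 74.0% to 49.9% and from 61.4% to 39.7%. *Mael*, of the piRNA pathway, went from 51.2% to 27.6%, *Adad1* from 55.6% to 32.8% and *Smc1b*, a meiotic cohesin, from 39.0% to 18.4%. Of the 37 germline gene bodies 0 were called, beside 1.79% of all bodies.

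Clustered protocadherins, cell adhesion genes expressed in single combinations in neurons, had 4 of 23 promoters called lower (17.4%) with a median of -15.1 points, and 1 of 24 bodies (4.17%), beside 3.05% and 1.79% over all genes. Their promoters had a WT median of 44.4%, and 7.46% of all promoters at 20% to under 50% in WT were called. Of those at 50% to under 80%, where *Pcdhb13* and *Pcdhb6* lay, 35.4% were called. *Pcdha11* went from 40.5% in WT to 9.35% in *Dnmt3b* KO ESCs, near its 6.42% in *Dnmt3a* KO, *Pcdhb13* from 68.2% to 41.6% and *Pcdhb6* from 76.4% to 55.6%. The lower body was that of *Pcdhb15*, with 81.9% and 61.5%. These genes resemble each other in sequence, so that reads may be shared between them. Keratins had 5 of 50 promoters called lower (10%), among them *Krt4*, *Krt222* (47.4% to 20.2%), *Krt10* (79.4% to 54.2%) and *Krt83* (52.4% to 30.4%), and 0 of 51 bodies. Their promoters had a WT median of 91.5%, and 5.74% of all promoters at 80% or more in WT were called. The share was 35.4% at 50% to under 80%, where *Krt10* and *Krt83* lay. It was 7.46% at 20% to under 50%, where *Krt222* lay.

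The other lists are given beside the 3.05% of promoters and 1.79% of bodies over all genes. Zinc finger genes named *Zfp* had 3 of 165 promoters (1.82%) and 8 of 182 bodies (4.40%) called lower. Among these were the promoter of *Zfp750* (47.6% to 22.9%) and the bodies of *Zfp740* (63.3% to 37.9%) and *Zfp408* (80.1% to 56.9%). Olfactory receptors had 1 of 90 promoters, that of *Olfr9* (86.0% to 62.7%), and 1 of 41 bodies, that of *Olfr283* (93.8% to 72.6%, or 93.5% to 74.8% as a share of reads). Vomeronasal receptors had 0 of 46 bodies, with a median of -11.5 points and 0 promoters measured, and histone genes 0 of 66 promoters and 0 of 11 bodies. The histone promoters had a WT median of 1.59%, and promoters under 20% in WT cannot fall by 20 points. Among 120 promoters and 121 bodies of developmental transcription factors, 0 were called, with low WT medians of 4.17% and 26.9%. *Lhx3* was nearest, with 38.6% in WT and 19.4% in *Dnmt3b* KO ESCs at its promoter. As a share of reads, this promoter went from 51.5% to 25.6%, past the 20 points. The list taken for the DNA methylation machinery had 1 of 19 promoters (5.26%), that of *Apobec2* (71.0% to 47.1%), and 0 of 20 bodies. Whether *Apobec2* acts in DNA methylation was not examined here. The promoters of *Dnmt3a* and *Dnmt3b* were unmethylated in both genotypes, at 0.796% and 2.54% in WT and 0.187% and 0.698% in *Dnmt3b* KO ESCs. The body of *Dnmt3b* was at 82.0% and 73.0%, and that of *Dnmt3a* at 79.3% and 70.9%.

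Genes of pluripotency and of other lineages were examined as a check of the cells. Of 17 pluripotency promoters and 18 bodies 0 were called, beside 3.05% and 1.79% over all genes. The WT median was 5.92% for these promoters and 55.5% for these bodies, and features under 20% in WT cannot be called lower. The median difference was -2.69 points for these promoters and -10.4 points for these bodies, beside -1.47 and -7.20 over all genes. The promoter of *Pou5f1*, a core factor of ESCs, was at 0.195% in WT and 0.176% in *Dnmt3b* KO ESCs, and that of *Sox2* at 0% and 0.541%. Their bodies were at 21.9% and 5.55% for *Pou5f1*, and 0.642% and 0.143% for *Sox2*. The largest differences of the list were at the body of *Sall4* (60.6% to 40.7%) and the promoter of *Lefty1* (33.1% to 16.7%), both short of the 20 points. As a share of reads, *Sall4* went from 67.3% to 44.3%, past the 20 points, and *Lefty1* from 27.4% to 14.1%. The promoter of *Elf5*, a trophoblast gene whose methylation separates the lineages, was at 94.9% in WT, 85.0% in *Dnmt3b* KO and 59.8% in *Dnmt3a* KO ESCs. Beside the same 3.05% and 1.79%, 0 features were called over the trophoblast (5 promoters, 5 bodies), mesoderm (3 and 2) and neural lists (4 and 4). Lists this small can hold 0 calls at these shares, and their promoters had WT medians of 30.4%, 6.10% and 4.71%. Over the primitive endoderm list 1 of 8 promoters (12.5%) and 0 of 10 bodies were called. The 1 was *Cubn*, at 91.3% in WT and 70.8% in *Dnmt3b* KO ESCs (89.6% and 71.8% as a share of reads). Methylation was measured here and expression was not.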

How the data were processed

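WGBS libraries of WT, *Dnmt3b* KO and *Dnmt3a* KO J1 ESCs were aligned to mm9 with BSMAP at its default parameters, cleaned of end-repair bases, clonal reads and overlapping mate segments with BSeQC, and called with MOABS by the authors. The deposited counts are methylated and total reads per CpG, summed over the 3 libraries of a genotype, and the deposited fraction is their ratio, which was used to check the counts. The merged tables list 13882752 (WT), 20688369 (*Dnmt3a* KO) and 20699170 (*Dnmt3b* KO) CpGs, and 1 incomplete WT row was left out.

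CpGs were matched by position, and those with at least 5 reads in both genotypes were kept. *Dnmt3a* KO levels of features use those among them with at least 5 reads in *Dnmt3a* KO ESCs as well. Promoters (at least 10 CpGs), gene bodies (at least 20) and islands (at least 20 CpGs, at least 500 bp, GC of at least 55%, observed/expected CpG of at least 0.65) were taken from GENCODE gene models and the reference sequence of mm9, using the longest isoform of protein-coding genes. The level is the mean of CpG ratios. With 1 pooled value per genotype no test across samples was possible, and 95% Wilson and Newcombe intervals of read shares were computed. Named in the text were the 12 promoter, 10 gene body and 10 island falls of largest size among those called with a mean depth of 8 to 100 reads, all called rises, up to 4 members of each gene list, and *Dnmt3b*, *Dnmt3a*, *Pou5f1*, *Sox2* and *Elf5*. Called members beyond 4 of the ribosomal protein and germline lists, and the contexts of several bases, were named after their values were seen. Not every list member that this rule names is reported here. The comparison, its members and the gene lists were chosen with earlier results of these data known. Alternatives changed the read minimum, strand, weighting, thresholds and feature definitions. Scripts used Python 3.11.15, NumPy 2.4.6, SciPy 1.17.1, pandas 2.3.3, numba 0.67.0 and matplotlib 3.10.9, and were tested on simulated data.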

Additional observations from a re-analysis of the deposited data

How the results depend on the processing

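The fall in mean CpG methylation of -6.95 points was -6.92 points with at least 3 reads, -6.99 with at least 10 reads, -6.91 with minus strand reads and -6.03 as a share of methylated reads. Counts of lower features followed the threshold, with 1445 promoters, 2530 gene bodies and 569 islands at 10 points and 63, 22 and 87 at 30 points. With the minimum number of CpGs doubled, 189 promoters and 216 islands were lower. Minus strand reads gave 116 lower islands and the looser island definition 1022. Leaving out islands of 10 or more copies, an alternative chosen after seeing the data, left 46. The number of higher promoters was 2 with plus strand reads, 4 with minus strand reads, 2 at 10 points and 0 at 30 points. Higher gene bodies numbered 0 with minus strand reads, 0 at 30 points and 0 from 2000 bp after the TSS, and higher islands numbered 2 with plus strand reads, 2 at 10 points and 2 under the looser definition. The gap between TCGA and GCGC, -11.3 points, was -11.1 points with at least 10 reads, -11.1 with plus and -11.1 with minus strand reads, and -11.0 over all CpGs. The density gap (16 or more against 4 to 7 CpGs), -4.49 points, was -3.04 points with at least 10 reads and -3.57 points with density in 1000 bp, where the classes were 32 or more against 8 to 15 CpGs. Over all CpGs, an alternative added after seeing the data, it was reversed, at 5.11 points, with -1.60 points at 16 or more CpGs, where WT was at 6.92%, and -6.71 points at 4 to 7. The gene profile (30 to 70% of the gene against 5 to 3 kb before the TSS), 1.13 points, was 1.25 points with at least 10 reads. No other alternative reversed a direction, and the cause of these shifts was not tested where the alternative's construction does not show it. The reference used here does not mark repeats, so that the context alternative left out islands only. No paired analysis was possible because the libraries of a genotype are merged, and no replicate could be left out for the same reason.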
